A study of Mus musculus with 2 samples.

Results

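Very-low-density lipoprotein (VLDL) is assembled in the endoplasmic reticulum of hepatocytes, where the microsomal triglyceride transfer protein loads lipid onto apolipoprotein B as it is made. The lipid-poor particle then gains more triglyceride, leaves in vesicles of the COPII coat and is secreted through the Golgi. CHOP, encoded by Ddit3, is a bZIP transcription factor induced by unfolded protein in that compartment. Its basic region differs from that of other C/EBP proteins, and it is known to bind DNA as a dimer with other bZIP proteins.

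The genes described here are Mttp with its divergent neighbour Trmt10a, and Apob, Tm6sf2, Pla2g12b and Sar1b, which makes 6 of 21866 protein-coding genes. They were picked with the CHOP peak list known, so their peaks are given as a description with no test. The samples were liver of WT mice given tunicamycin, which blocks N-linked glycosylation, at 1 mg/kg by intraperitoneal injection for 8 h. The liver chromatin of 3 such mice, pooled, gave 1 CHOP library, and 1 input library of the same genotype and treatment is listed beside it. There was no replicate, no untreated liver and no liver without CHOP, so the variation between animals is unknown and the part of the drug in any peak was not tested. A peak list holds no expression, so the tissue label was not checked against marker genes.

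The list held 14157 peaks, whose summits rested on a median of 11 reads (4 to 329). A peak counted as a promoter peak of a gene if its summit was no more than 1 kb from one of the gene's start sites. It counted as distal if the summit was further away but within 50 kb and no other protein-coding gene had a nearer start site. Fold is the authors' enrichment, which is the summit reads plus 1 divided by the local background plus 1, so it is smaller than the plain ratio of reads to background. Each interval given for it is a 95% exact Poisson interval that covers counting error only.

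Of the 6 genes, 2 had a promoter peak, Mttp and Trmt10a, and it was the same peak, whereas 27.9% of all protein-coding genes had one. Another 2, Apob and Sar1b, had a distal peak, against 18.0% of all protein-coding genes. Tm6sf2 and Pla2g12b had neither. In all, 4 peaks belonged to the 6 genes. Because the genes were picked on these peaks, nothing is read from the counts.

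The strongest of these peaks covers the start sites of Mttp and Trmt10a. The bases around its summit and the stretch between the start sites are shown. Both matches within 50 bp of the summit, and both matches between the starts, can be read in these bases. They are from mm10, plus strand, 5′ to 3′, at chr3:138143708-138143828 and chr3:138143389-138143447. Capitals mark a CRE half-site (TGACG), the E-box palindrome (CACGTG) and a CCAAT box in the first, of which the CRE half-site and the CCAAT box lie on the minus strand. In the second they mark a GC box (GGGCGG) on the minus strand and a CRE half-site on the plus strand. Matches to the ETS core (CCGGAAG), 98 and 122 bp from the summit, lie outside both stretches.
Mttp and Trmt10a summit: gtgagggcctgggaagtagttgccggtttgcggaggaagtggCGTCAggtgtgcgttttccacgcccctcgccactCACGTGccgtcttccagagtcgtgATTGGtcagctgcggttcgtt
Mttp and Trmt10a between starts: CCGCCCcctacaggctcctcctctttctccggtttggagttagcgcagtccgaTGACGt

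Mttp encodes the large subunit of the transfer protein, loss of which causes abetalipoproteinemia in humans. Trmt10a encodes a tRNA guanosine methyltransferase. The outermost start sites of their protein-coding transcripts lie 60 bp apart on opposite strands of chromosome 3. They are at 138143388 for Mttp (minus strand) and 138143448 for Trmt10a (plus strand). With non-coding transcripts included, the annotated Mttp gene reaches 138144968 and so overlaps Trmt10a. The peak spans 138143293 to 138144221, 929 bp, against a median width of 351 bp over promoter peaks.

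The fold at this peak was 83.8 (69.4 to 100.4), with 116 reads at the summit, a local background of 0.396 reads, 1 added to each, and a −log10 q of 234. The median promoter peak had a fold of 6.65 on 13 reads. The summit, at 138143821, lies on the Trmt10a side of both start sites. It is 433 bp upstream of the Mttp start, 373 bp inside the first Trmt10a start and 22 bp downstream of the nearest of the 5 Trmt10a starts, all of which the peak contains. At the summit the annotation has the 5′ UTR in the first exon of Trmt10a and an exon of a non-coding transcript of Mttp. The position alone does not assign the peak to either gene.

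**Figure D1:**
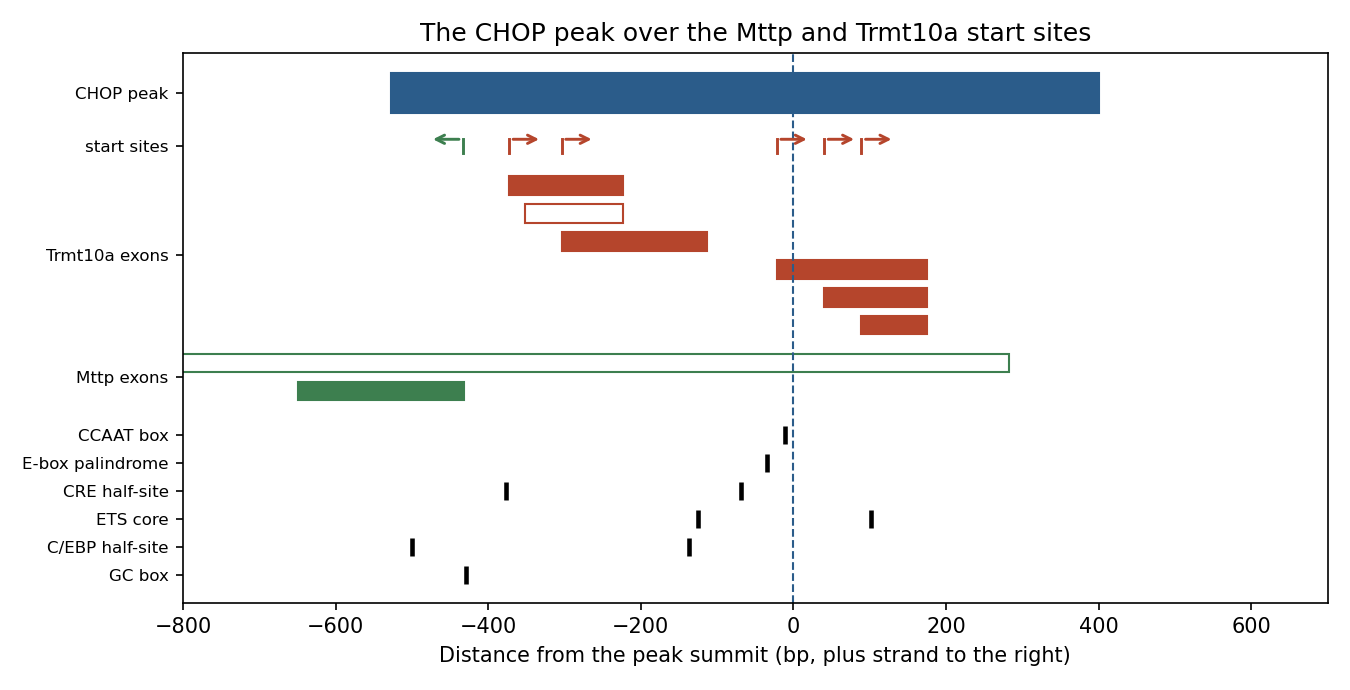
Map of the Mttp and Trmt10a promoter region, with distance from the summit (dashed line) in bp on the horizontal axis and the plus strand to the right. Arrows are start sites (Mttp green, Trmt10a red), filled and open boxes are exons of coding and non-coding transcripts, and ticks are motif matches; the Mttp start stands 433 bp left of the summit and the nearest Trmt10a start 22 bp left of it.

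Mttp has another annotated start of a protein-coding transcript, 12011 bp downstream of the first at 138131377. No peak covers it: the nearest summit is 12444 bp away and is that of the shared promoter peak. The starts differ in composition. The CpG observed/expected ratio within 500 bp was 1.09 at the upstream start and 0.21 at the downstream start, with GC contents of 51.1% and 43.4%. From 250 bases before to 50 after the upstream start there is 1 CRE half-site and 1 GC box, and around the downstream start none of the 21 motifs matched. A peak list does not show which start the liver uses.

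Among 6306 promoter peaks, this peak ranked 6 by fold, and the peaks at ranks 3 to 10 have folds within its counting interval. It ranked 40 among all 14157 peaks. Other measures placed it lower among promoter peaks, at 12 by −log10 q and 21 by reads at the summit. The 5 promoter peaks above it in fold were those of Cebpg at 131 (117 to 146), which encodes a C/EBP partner of bZIP factors, Trib3 at 106 (90.0 to 123), a pseudokinase induced in the stress response, Ssu72 at 94.2 (80.8 to 109), Fem1c at 90.9 (78.6 to 105) and Dcun1d3 with Lyrm1 at 88.3 (75.6 to 103). The 5 below were those of Wfs1 at 79.4 (67.5 to 92.7), a membrane protein of the endoplasmic reticulum, Lmo4 at 79.1 (69.5 to 89.7), Dennd4a at 75.4 (64.2 to 88.0), Gars at 74.9 (65.6 to 85.1), the glycyl-tRNA synthetase, and Metrn at 65.5 (53.5 to 79.5). The interval of the Mttp and Trmt10a peak overlaps that of each of these except Cebpg.

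**Figure D2:**
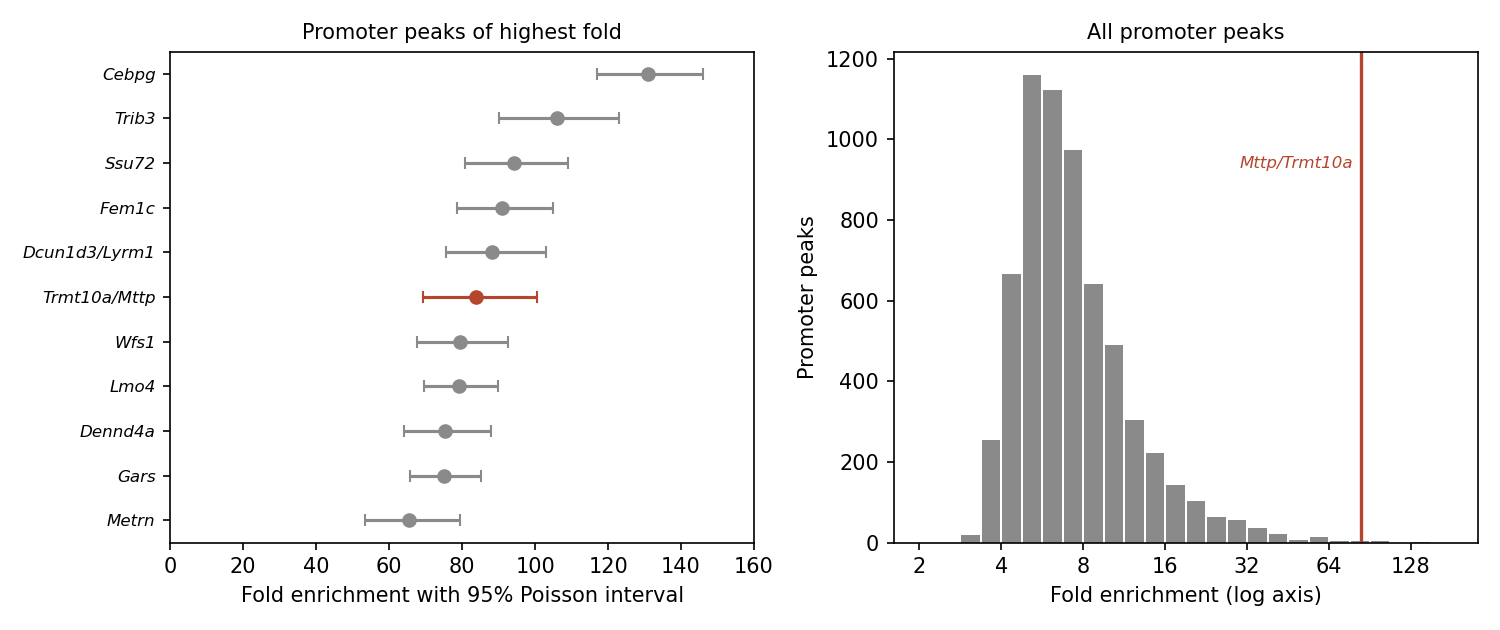
Fold of the Mttp and Trmt10a peak beside its neighbours in rank among promoter peaks, with points for the authors' fold and bars for 95% exact Poisson intervals (counting error only), and at right the fold of all 6306 promoter peaks on a log axis with a line at this peak. The peak at 83.8 has a bar that overlaps all of its neighbours shown except Cebpg at 131.

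Divergent pairs such as Mttp and Trmt10a had peaks of the usual fold. Of 2158 genes with a divergent partner start within 1000 bp, 1009 (46.8%) had a promoter peak, against 5091 of 19708 other genes (25.8%). The 535 promoter peaks at such pairs had a median fold of 6.6, against 6.65 for the 5771 other promoter peaks. The Mttp and Trmt10a peak ranked 2 among those at divergent pairs.

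Within 50 bp of the Mttp and Trmt10a summit, 2 of the 21 motif kinds matched. The CCAAT box, known to bind the factor NF-Y, lies 9 bp from the summit and the E-box palindrome, known to bind USF and other helix-loop-helix factors, 32 bp. The CCAAT box was found within 50 bp of the summit in 7.52% of promoter peaks and the E-box palindrome in 5.41%. Both were present in 47 promoter peaks (0.745%), whose median fold was 10.4, and the Mttp and Trmt10a peak had the highest fold of the 47. The pair of motifs was taken from this peak, itself picked with the peak list known. Nothing is therefore read from its place among the 47, and the part of either motif in its fold was not tested. The median fold was 9.74 for promoter peaks with the E-box palindrome, 6.56 for those without it and 6.73 for those with the CCAAT box, beside 6.65 over all promoter peaks.

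No element of the kind associated with CHOP, ATF4 or C/EBP dimers was matched in the 929 bp. These were the C/EBP-ATF composite element (TGATGNAAT), the C/EBP palindrome (TTGCGCAA), the C/EBP half-site pair (TTGCNNAA) and the CRE palindrome (TGACGTCA). Half-sites were present: CRE half-sites 67 and 375 bp from the summit, and C/EBP half-sites (TTGCA) 135 and 498 bp from it. Of all promoter peaks, 88.2% had none of the 4 elements anywhere in the peak, as did 66 of the 100 promoter peaks of highest fold. The 4 leave out a shorter composite form that was also searched, TGATGNAA, and the 929 bp lack it too. It was in 4.01% of promoter peaks and in 21 of those 100. Within 50 bp of the summit, the Cebpg and Trib3 promoter peaks had it. Among the 5563 promoter peaks with none of the 4 elements, the Mttp and Trmt10a peak ranked 4 by fold. The search was for exact letters, so a match with 1 altered base is not counted.

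Sar1b encodes the small GTPase that starts assembly of the COPII coat and is mutated in human chylomicron retention disease. It has 1 start site, at 51763687 on the plus strand of chromosome 11, and no promoter peak. Its 2 distal peaks lie in introns of the gene. The stronger, at 51767791 to 51768058, has its summit 4220 bp inside the gene, a fold of 9.0 (4.87 to 15.5) on 11 reads and a −log10 q of 11. The weaker, with its summit at 8556 bp, has a fold of 4.48 (1.96 to 9.46) on 5 reads and a −log10 q of 2.9, and 60.5% of its bases are soft-masked as repeats. The median fold over all peaks was 6.75.

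The bases around the summit of the stronger Sar1b peak are shown because they hold both the E-box palindrome and C/EBP half-sites, given in capitals (mm10, plus strand, chr11:51767837-51767987). The run TTGCAA is a pair of overlapping half-sites, one on each strand.
Sar1b intron: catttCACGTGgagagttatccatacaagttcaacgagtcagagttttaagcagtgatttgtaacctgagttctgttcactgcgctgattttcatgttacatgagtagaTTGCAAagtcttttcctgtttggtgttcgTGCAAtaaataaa

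The E-box palindrome here is 60 bp from the summit, and the nearest half-site is 39 bp from it. The weaker Sar1b peak has an E-box palindrome 42 bp from its summit. The palindrome thus occurs in 3 of the 4 peaks of these genes, a count made over whole peaks after the matches were seen. Anywhere in the peak, 9.7% of all peaks hold it, with 15.4% of promoter peaks and 5.15% of the other peaks. Of the 100 promoter peaks of highest fold, 33 hold it. Nothing is read from the count.

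Apob encodes apolipoprotein B, the structural protein of the particle, at 7977648 to 8016835 on the plus strand of chromosome 12. No peak covers any of its 3 start sites. Its distal peak, at 7928016 to 7928452, is 49312 bp upstream of the first start, just inside the 50 kb limit, in an intron of the non-coding gene Gm48633. The fold was 4.5 (1.97 to 9.5) on 5 reads, with a −log10 q of 2.9. The next summits nearest to Apob, at 84301 and 102340 bp, fall outside the limit and had folds of 5.25 on 6 reads each.

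The 100 bases before the first annotated Apob start in RefSeq are shown because they hold a C/EBP half-site pair with no peak over it. The pair, on the minus strand, is in capitals and ends 35 bases before that start (mm10, plus strand, chr12:7977529-7977628). Such a pair was found in 10.8% of the RefSeq promoter windows of 300 bases, a table that held 5 of the 6 genes. The RefSeq start used for this distance, at 7977629, is that of a model transcript. The curated RefSeq start of Apob is at 7977677, and its first GENCODE start is at 7977648.
Apob upstream: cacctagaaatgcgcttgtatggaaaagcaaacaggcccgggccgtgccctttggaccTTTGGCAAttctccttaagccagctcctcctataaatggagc

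Tm6sf2 encodes a membrane protein needed for full lipidation of VLDL and linked to fatty liver in humans. It lies at 70072924 to 70080066 on the plus strand of chromosome 8. There were 5 peaks within 50 kb of it, and each was nearer to a start site of another gene. The closest, 10496 bp away, had a fold of 28.2 (20.3 to 38.1) on 40 reads and belongs by position to Hapln4, a gene of extracellular matrix. Pla2g12b encodes a phospholipase-family protein without catalytic activity that is needed for lipid loading of VLDL. No summit lay within 50 kb of its start sites on chromosome 10. The nearest was 62738 bp away, with a fold of 6.02 on 9 reads.

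**Figure D3:**
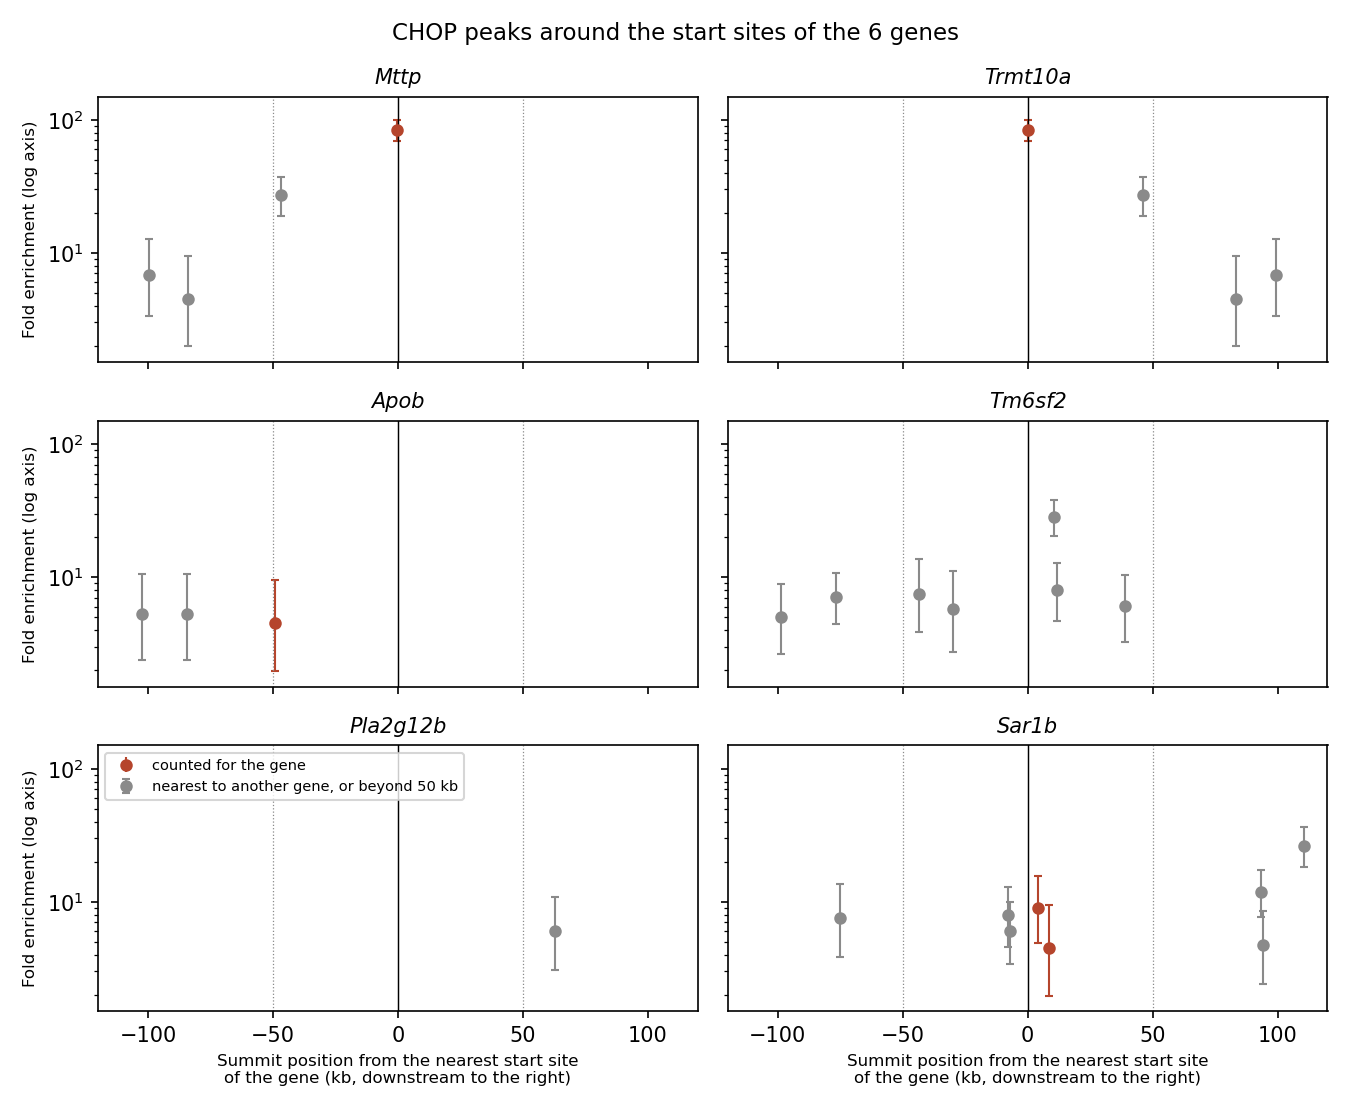
Peaks around each of the 6 genes, with position of the summit from the nearest start site of the gene in kb (downstream to the right) against fold on a log axis, bars giving 95% exact Poisson intervals, dotted lines 50 kb and red points the peaks counted for the gene. The Mttp and Trmt10a panels share the peak at 83.8, and no summit stands within 1 kb of a start of the other 4 genes.

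Start sites of these genes differ in CpG content, and genes with few CpGs seldom had promoter peaks in this library. The ratio was 1.09 at the upstream Mttp start and 0.93 to 1.06 at the Trmt10a starts. It was 0.55 at Sar1b, 0.46 at Tm6sf2, 0.17 to 0.36 at Apob and 0.26 to 0.33 at Pla2g12b. Taking the highest ratio among a gene's starts, a promoter peak was present over all genes in 68.4% of 5416 genes with a ratio of 0.8 or more, in 33.6% of 5822 from 0.6 to 0.8, in 9.49% of 2930 from 0.4 to 0.6 and in 2.0% of 7685 below 0.4. The part of composition in the members' peaks was not tested.

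**Figure D4:**
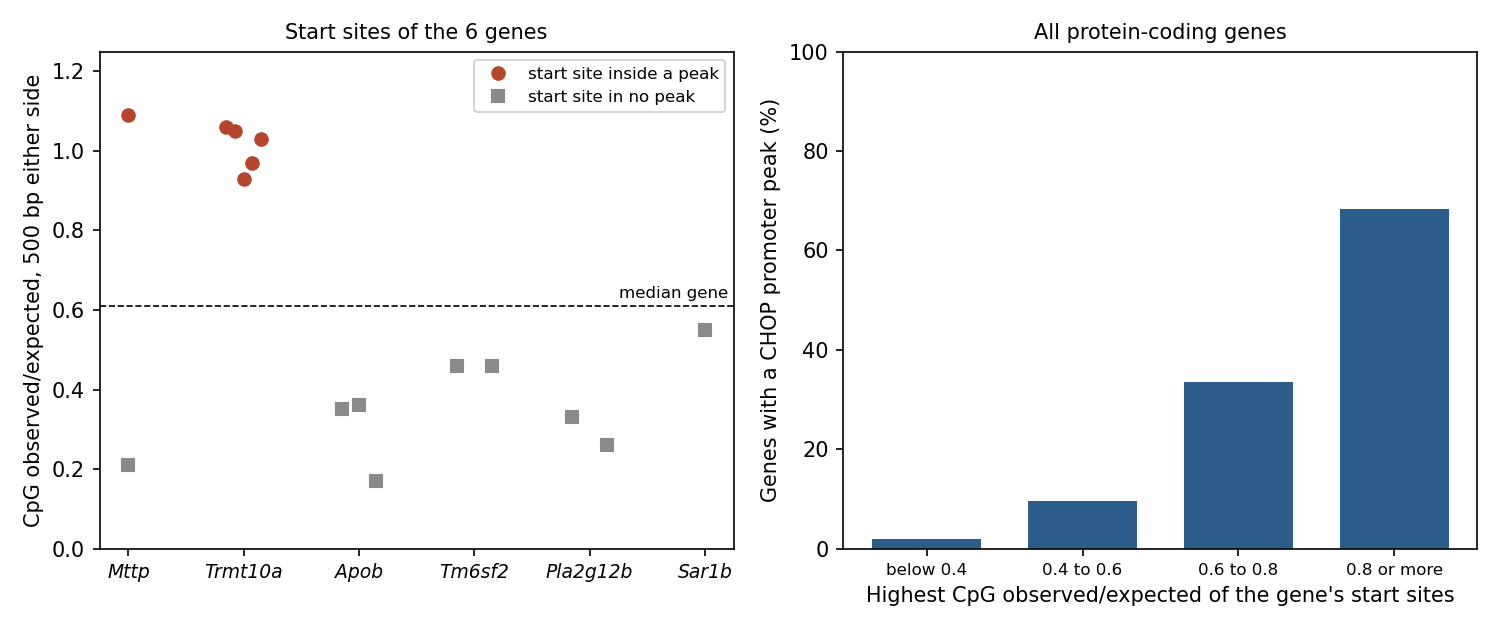
CpG observed/expected ratio of the 6 genes around each start site (500 bp either side), red where the start is inside a peak, with a dashed line at the median gene, 0.61. Bars give the percentage of all protein-coding genes with a promoter peak by the highest ratio among a gene's starts. Mttp at 1.09 and Trmt10a lie in the range where 68.4% of genes had a promoter peak, and the other 4 genes lie below 0.6.

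The wider VLDL pathway was described with 6 lists of 92 genes, of which 42 (45.7%) had a promoter peak, against 27.9% of all protein-coding genes, and 37 (40.2%) a distal one, against 18.0% of all. The lists were chosen with earlier results of these data known, and they include Mttp and other members. These shares are therefore a description with no test. The shares of single lists given next are likewise a description, to be read beside the same 27.9% and 18.0%. The lists have more CpG-rich starts than the genome, with a median ratio of 0.72, against 0.61 over all protein-coding genes. The median fold of the best promoter peak was 7.44 over the listed genes with one, and 6.86 over all genes with one.

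In particle assembly, 3 of 8 genes (37.5%) had a promoter peak. Beside Mttp these were Pdia3, a disulfide isomerase of glycoprotein folding, at 11.8 (7.66 to 17.5) in a peak shared with Catsper2, and P4hb, which encodes the protein disulfide isomerase that is the small subunit of the transfer protein, at 6.32 (3.5 to 10.7) on 12 reads. The peaks of Pdia3 and P4hb each had a CCAAT box within 50 bp of the summit, as did 7.52% of all promoter peaks. Nothing is read from these matches. Of the transfer protein's subunits, both genes therefore had a promoter peak, and the intervals of their folds do not overlap. The Mttp peak is shared with Trmt10a, which has the start site nearest to its summit. The CpG ratios were 1.09 for Mttp and 0.98 for P4hb, and 68.4% of all genes with a ratio of 0.8 or more had a promoter peak.

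COPII export had the highest share of the lists, with 14 of 18 genes (77.8%) and a median best promoter fold of 7.12. It also had the highest median CpG ratio of the lists, 0.79. Of its genes with a ratio of 0.8 or more, 9 of 9 had a promoter peak, against 68.4% of all such protein-coding genes. Over all lists together, 25 of 28 such genes had one. The part of composition in the share of this list was not tested. Mia2, a cargo receptor for bulky lipoproteins, had the highest promoter fold at 13.1 (9.09 to 18.3), followed by the coat subunit Sec24d at 12.5 (8.64 to 17.4), the cargo receptor Mia3 at 10.6 (6.91 to 15.8), Preb, the exchange factor for the SAR1 GTPases, at 9.04, and Sec24b at 8.01. Mia3 also had a distal peak of higher fold, 43.8 on 63 reads, 4843 bp from a start site. Sar1a, the paralog of Sar1b, had a promoter peak of 6.29 and is named after its value was seen. The 4 genes without one were Sar1b, Sec24c, Sec13 and Surf4.

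Of genes that supply triglyceride, 7 of 18 (38.9%) had a promoter peak. They were led by Acsl1, a long-chain acyl-CoA synthetase, at 24.2 (18.6 to 31.1), Dgat1, which completes triglyceride synthesis, at 19.4 (14.2 to 25.9), and the phosphatidate phosphatase gene Lpin2 at 18.6 (13.7 to 24.6). Soat2, which esterifies cholesterol, stood at 9.41 and Dgat2 at 7.19. Exchangeable apolipoproteins had 1 of 12 (8.33%), which was Apoh at 4.7 (2.66 to 7.79) in a peak shared with Prkca, and none had a distal peak. The median CpG ratio of that list was 0.23.

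Clearance and presecretory degradation had 6 of 16 (37.5%), all with folds under 10. Derl1, which acts in export of misfolded proteins, stood at 9.6, the receptor gene Vldlr at 9.49, the sorting receptor gene Sort1 at 7.54 and Svip at 5.38. Regulators of Mttp and Apob had 11 of 20 (55.0%) with a promoter peak and 15 of 20 (75.0%) with a distal peak. Their highest promoter folds were those of Prox1 at 29.6 (22.2 to 38.6) and Foxo1, an insulin-restrained activator of Mttp, at 24.7 (18.6 to 32.1), then Nr2f2 at 13.1 and, both at 10.8, Ern1 and Ppargc1b. No other listed gene had a promoter fold as high as that of Mttp. Among distal peaks, Cebpb, a C/EBP family gene, had a fold of 76.3 on 161 reads, which lies within the interval of the Mttp peak, with its summit 1172 bp from the start site and so just outside the promoter limit. Xbp1, a regulator of the unfolded protein response, had a distal fold of 36.7 at a summit 29956 bp away, in a peak with 73.0% of its bases soft-masked. Both were named after their values were seen.

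**Figure D5:**
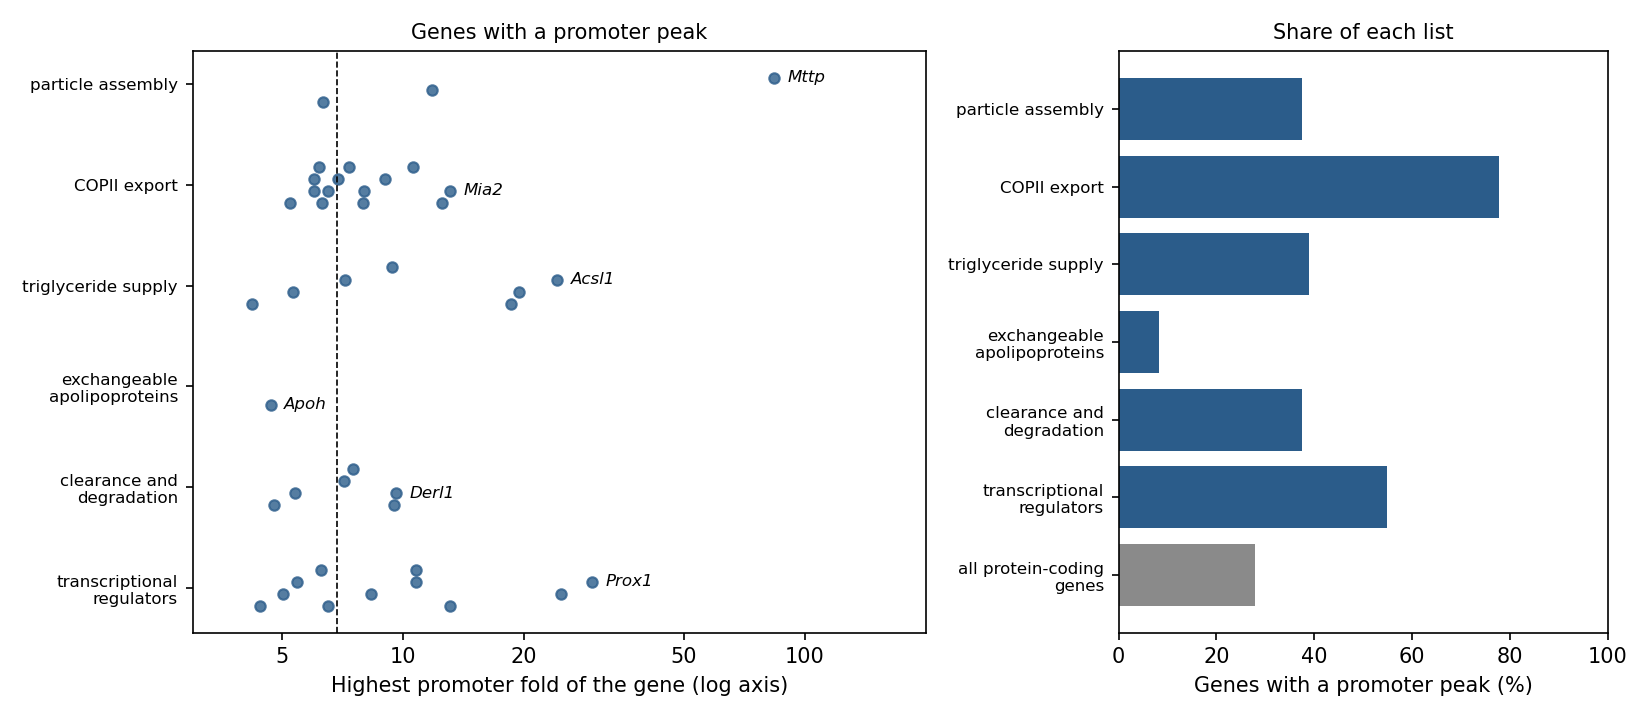
Best promoter fold, on a log axis, of every listed gene with a promoter peak, by list, with a dashed line at 6.86, the median of all protein-coding genes with one, and at right the percentage of each list and of all protein-coding genes with a promoter peak. Mttp at 83.8 stands above the promoter fold of every other listed gene.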

How the data were processed

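Per the labels' protocols, single-end reads were placed on mm10 by Bowtie at up to 2 mismatches, and reads present more than 2 times at a position and strand were discarded. Samtools 1.9 and Sambamba 0.7.1 then filtered the alignments, and MACS2 2.1.2 called peaks at its defaults, per the labels' protocols, on 1 library from the pooled chromatin of 3 mice. No version of Bowtie is given in the sources used here, and a processed input file was not analysed here.

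The values deposited by the authors are, per peak, a fold enrichment (the ratio of summit pileup to local background after 1 is added to each, as the solved values show), the −log10 p and −log10 q of that comparison, a summit offset, and a score that was not used here. The pileup and background were solved from fold and −log10 p for every peak, to within 3.13e-05 of the deposited −log10 p, after the solver was tested on simulated data. The 95% exact Poisson interval of the pileup was converted to fold at a fixed background, and it covers counting error only. Library totals are not given in the sources used here, so the pileup stands for depth.

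GENCODE M21 gave the start sites of 21866 protein-coding genes, from their protein-coding transcripts. Sequences, the promoter table and a further set of start sites came from RefSeq GRCm38.p6, the assembly of mm10. Exact matches to 21 motifs were sought on both strands within 50 bp of each summit. With 1 library no test between groups was made, and counts of members and listed genes stand beside the shares of all genes. The members, gene lists and motifs were chosen with earlier results of these data known. Named genes are the members, up to 5 genes per list by promoter fold and any at 20-fold or more, the nearest neighbours of Mttp, and the 5 promoter peaks on either side of its peak in fold. A gene that this rule names is not reported here. Alternatives were other distances, thresholds, start sites, peak measures and motif windows. Scripts ran in Python 3.11.15 (numpy 2.4.6; pandas 2.3.3; scipy 1.17.1; matplotlib 3.10.9).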

Additional observations from a re-analysis of the deposited data

How the results depend on the processing

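Of 26 alternatives, 19 left the result within the range set for it and 7 moved it. With only the nearest start site counted, 1 member in place of 2 had a promoter peak, which was Trmt10a. The members with a distal peak numbered 1 in place of 2, leaving Sar1b, within 20 kb, with −log10 q of at least 5 and with a fold of at least 5. The shared Mttp and Trmt10a peak ranked 12 by −log10 q and 21 by pileup, in place of 6 by fold. Over whole peaks, 10 matches of a motif kind to a member peak were found, in place of 5 within 50 bp of the summits. The 7 matches found within 100 bp were counted as within the range. The number of listed genes with a promoter peak was 42 and ran from 35 to 47 over its alternatives, all counted as within the range. RefSeq start sites and the rank without soft-masked peaks were added after the data were seen. No paired analysis was possible because each kind of library has 1 sample and no result comes from a test. The Apob peak and the weaker Sar1b peak rest on 5 reads each, which limits what can be said of them.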

Other observations

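The nearest other peak to the Mttp locus lay on the Trmt10a side, in an intron of 4930579F01Rik, 46581 bp from the Mttp start site. It had a fold of 27.0 (19.0 to 37.3) on 35 reads, was 180 bp wide, and 51.7% of its bases were soft-masked as repeats. Beyond it, Adh7, an alcohol dehydrogenase, had 2 distal peaks and no promoter peak. On the other side of Mttp, Gm5105, 1110002E22Rik and Dapp1 had neither kind of peak.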
